A study of Mus musculus with 10 samples.

Results

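The genes described here code for the matricellular proteins periostin (Postn), SPARC (Sparc), hevin (Sparcl1), tenascin-C (Tnc), tenascin-X (Tnxb) and thrombospondins 1 to 4 (Thbs1, Thbs2, Thbs3, Thbs4), and for fibronectin (Fn1), the matrix glycoprotein many of them bind. The 10 members were chosen by name, with earlier results of these data known. They come from 24063 gene symbols in the tables, of which 19459 had a read. For each, the transcript with the largest count summed over all libraries stands in, and all 10 had enough reads to be tested. RNA was sequenced from quadriceps muscle of 10 mice, 5 on plain facility water (Control) and 5 on water with a supplement named 1C-MIM, the composition of which the sources used here do not give. All were C57BL mice of genotype WT, 17 to 20 months old when used, with no transgene or deletion named. Cages of up to 5 animals were offered 150 mL of drinking solution every other day, and supplementation lasted between 1 and 3 months. In both groups the tibialis anterior was later injured, while the quadriceps that gave the RNA was left uninjured. Titles number the libraries 1 to 5 in each group and the deposited names give each its own animal number, so p-values measure the spread between animals of a group. The labels do not give the cage of each animal. The solution was offered by cage, so a difference between cages cannot be told apart from that of the supplement.

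Matricellular proteins are secreted into the extracellular matrix, where they regulate how cells attach, how collagen fibrils are assembled and how growth factors are held or released, rather than bearing load themselves. Fibronectin forms fibrils on the cell surface through integrins and serves as a scaffold on which collagens and several matricellular proteins are laid down. In skeletal muscle these genes are expressed mainly by connective tissue cells, vessel walls and tendon cells, and many of them are known to rise in injury, regeneration and fibrosis.

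Of the 10 genes, 3 were lower with 1C-MIM (Postn, Sparc and Thbs3), 1 was higher (Sparcl1) and 6 did not pass the test. The promoters of the genes that fell are shown first, so that the letters ahead of their starts can be compared. Of the 10 members 7 had an entry in the RefSeq promoter table, which is of build GRCm38.p6 and not the GRCm39 named in the submitters' notes. Each sequence is the 250 bases before the start, 5′ to 3′ on the gene's own strand, with motif matches in capitals. They lie at chr3:54360857-54361106 on the plus strand for Postn (the downstream one of its listed starts), at chr11:55420081-55420330 on the minus strand for Sparc and at chr3:89214930-89215179 on the plus strand for Thbs3.
Postn: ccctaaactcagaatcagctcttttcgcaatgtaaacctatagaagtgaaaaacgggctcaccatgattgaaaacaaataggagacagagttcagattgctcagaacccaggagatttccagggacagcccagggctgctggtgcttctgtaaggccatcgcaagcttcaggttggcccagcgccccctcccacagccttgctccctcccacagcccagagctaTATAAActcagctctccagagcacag
Sparc: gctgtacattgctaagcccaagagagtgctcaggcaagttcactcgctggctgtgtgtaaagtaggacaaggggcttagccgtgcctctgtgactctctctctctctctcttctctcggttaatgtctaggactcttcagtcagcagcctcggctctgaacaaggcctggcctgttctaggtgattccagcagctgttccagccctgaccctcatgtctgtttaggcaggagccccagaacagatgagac
Thbs3: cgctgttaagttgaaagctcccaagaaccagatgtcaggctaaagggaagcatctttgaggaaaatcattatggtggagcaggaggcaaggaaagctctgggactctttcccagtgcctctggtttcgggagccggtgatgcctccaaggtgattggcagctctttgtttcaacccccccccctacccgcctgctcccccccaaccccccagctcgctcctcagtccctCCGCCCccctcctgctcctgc
The motifs searched on both strands were TATAAA (the TATA box), GGGCGG (the GC box) and TGANTCA (the AP-1 site), and matches to different motifs did not overlap in these stretches. Postn held TATAAA 26 bases before its start, Thbs3 held the GC box on the opposite strand 21 bases before its start, and Sparc held no match to any of the motifs. The upstream start listed for Postn, not shown, held no match. Among the uncalled members, Thbs2 and Tnc also held TATAAA, Thbs4 and Tnc held GGGCGG, and Tnxb held TGANTCA. Over 32851 mouse promoters of the same length, 12.4% held TATAAA, 32.7% held GGGCGG and 6.75% held TGANTCA. The promoters of the genes that fell thus did not share a match. A match describes the letters and is no evidence of binding.

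Library sizes were even, with 28521254 to 31771296 counts after 1 transcript was kept per symbol. Expression is given in counts per 1000000 scaled by TMM factors (CPM), and a gene was called when the adjusted p of edgeR's quasi-likelihood test over all 13880 tested genes was under 0.05. Transcripts of muscle fibres, the labelled tissue, dominated every library (summed CPM of Ckm, Acta1, Myh4 and 6 other fibre genes 205000 to 249000). Control 1 stood apart for neuronal transcripts, and values without it, and without Control 1 and Control 5 together, are given where they bear on a member. Because these are bulk samples, fewer cells of a type and less RNA per cell cannot be told apart. The sources used here do not state the strand setting of the counting, and the spans of Postn, Sparcl1, Tnc, Tnxb and Thbs3 overlap another gene in the RefSeq annotation of GRCm38.p6, so reads of those neighbours cannot be told apart from theirs.

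**Figure D1:**
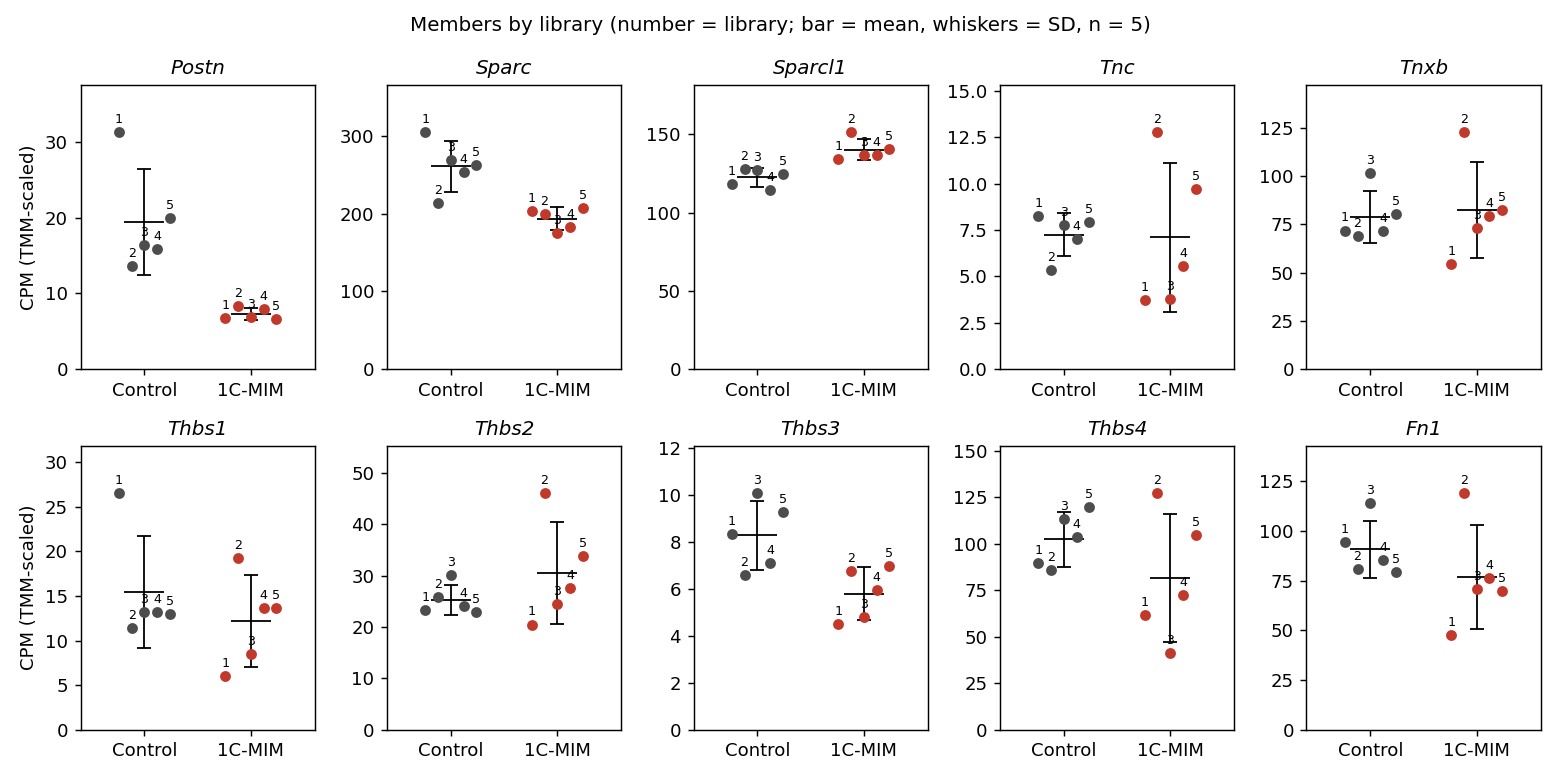
Expression of the 10 members in each library, in CPM, with a panel for each gene and axes that start at 0 and differ between panels; points are libraries with their number, horizontal bars are means and whiskers are SD (n = 5 per group). Postn, Sparc and Sparcl1 separate the groups without overlap, while Tnc, Thbs4, Tnxb and Fn1 spread widely within 1C-MIM, from 1C-MIM 1 or 1C-MIM 3 at the bottom to 1C-MIM 2 at the top.

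Per kilobase of transcript, levels of the members in Control ran from 1.02 to 99.0 CPM. Sparc was the most abundant at 99.0 ± 12.3 CPM per kilobase (SD, n = 5), followed by Sparcl1 at 39.3 ± 1.92 and Thbs4 at 32.0 ± 4.6. Fn1 at 10.8 ± 1.69, Tnxb at 8.24 ± 1.41 and Postn at 6.05 ± 2.18 CPM per kilobase came next. Fn1 and Tnxb, and likewise Tnxb and Postn, were not clearly separated by their spread. Thbs2 (4.26 ± 0.504), Thbs1 (2.67 ± 1.08), Thbs3 (2.6 ± 0.459) and Tnc (1.02 ± 0.166) were the least abundant per kilobase, with Thbs1 and Thbs3 not separated by their spread. In 1C-MIM the order per kilobase was Sparc (73.4 ± 5.49), Sparcl1 (44.9 ± 2.15), Thbs4 (25.4 ± 10.7), Fn1 (9.13 ± 3.1), Tnxb (8.62 ± 2.62), Thbs2 (5.15 ± 1.69), Postn (2.27 ± 0.238), Thbs1 (2.11 ± 0.887), Thbs3 (1.82 ± 0.352) and Tnc (1.0 ± 0.564). The change in order was that Postn came to lie below Thbs2, at a level within the spread of Thbs1. In Control the spreads of Postn and Thbs2 already overlapped.

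Postn, the periostin gene, had the largest change of the members. Periostin is secreted by activated fibroblasts and binds collagen I, fibronectin, tenascin-C and integrins. In Control 1 to 5 it had 31.3, 13.6, 16.4, 15.9 and 19.9 CPM, and in 1C-MIM 1 to 5 it had 6.70, 8.28, 6.91, 7.94 and 6.61 CPM. Every supplemented library lay below every Control, and the supplemented ones were close together, the highest being 1.25 times the lowest against 2.3 times in Control. The mean dropped from 19.4 ± 7.01 to 7.29 ± 0.766 CPM (SD, n = 5 per group), which was 2.65-fold lower on the fitted scale (log2 fold change -1.41, SE 0.20, adjusted p = 0.0012 by edgeR). Control 1, the highest, decided part of the size but not the call: without it the log2 fold change was -1.17 (SE 0.11), and without Control 1 and Control 5 together it was -1.07 (SE 0.10). The call held in all 20 alternatives. Behind these values were 194 to 915 reads per library, and the 3 Postn transcripts in the tables had almost identical counts, so splice forms of its C-terminal region could not be told apart.

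Sparc fell less in proportion, but from a much higher level. Its product, SPARC or osteonectin, is a collagen-binding protein that assists procollagen processing and fibril assembly. The Control libraries had 305, 214, 269, 254 and 263 CPM and the 1C-MIM libraries 204, 200, 175, 182 and 208 CPM. The groups did not overlap, although Control 2 lay close to 1C-MIM 5 and 1C-MIM 1. The mean went from 261 ± 32.6 to 194 ± 14.5 CPM, 1.35-fold lower (log2 fold change -0.43, SE 0.08, adjusted p = 0.00476 by edgeR), and the call held in all 20 alternatives. Per kilobase, Sparc lost more CPM than any other member.

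Sparcl1 codes for hevin, a protein of the SPARC family with a similar collagen-binding domain, which is abundant in vessel walls. It was the only member called higher. The Controls had 118, 128, 127, 114 and 125 CPM, and the supplemented libraries had 135, 151, 137, 137 and 141 CPM. All values of 1C-MIM lay above all values of Control, but the gap between Control 2 and 1C-MIM 1 was narrow. The mean rose from 123 ± 5.97 to 140 ± 6.71 CPM, a 1.14-fold difference (log2 fold change 0.19, SE 0.05, adjusted p = 0.025 by edgeR). The call, but hardly the size, depended on single libraries: the log2 fold change was 0.17 without Control 4 (edgeR adjusted p 0.0701), 0.16 without 1C-MIM 2 (0.0592) and 0.18 without Control 1 and Control 5 together (0.0701). With library totals in place of TMM factors it was 0.12 (0.162).

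The member counts can be set against the whole table. Of all tested genes 9.78% were called higher (1357) and 11.8% lower (1642), against 1 and 3 of the 10 members; with library totals as the scaling the split over all genes was 606 higher and 2896 lower. The groups did not overlap for Postn, Sparc and Sparcl1, 3 of 10 members, against 14.6% of all tested genes. With so few members these shares move in large steps, and the members are described, not tested, as a list. That list was chosen with earlier results of these data known, so the shares are no independent comparison. Without Control 1 and Control 5 together, 0 members were called higher and 2 lower. The members' median log2 fold change with all libraries was -0.29, and that of all tested genes was 0.0. It was -0.45 without 1C-MIM 2 and -0.16 without Control 1 and Control 5 together.

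Thrombospondins fall into a group that forms trimers (Thbs1 and Thbs2), which carry the domains that inhibit vessel growth, and a group that forms pentamers (Thbs3 and Thbs4), which lack these domains and are close to cartilage oligomeric matrix protein. Of the pentameric genes, Thbs3 was called lower and Thbs4 was not past the test. Thbs3 had 8.35, 6.59, 10.1, 7.12 and 9.29 CPM in Control 1 to 5 and 4.49, 6.77, 4.82, 5.97 and 6.98 CPM in 1C-MIM 1 to 5. The groups overlapped, because 1C-MIM 2 and 1C-MIM 5 lay above Control 2. Its mean went from 8.29 ± 1.46 to 5.8 ± 1.12 CPM, 1.42-fold lower (log2 fold change -0.51, SE 0.15, adjusted p = 0.0256 by edgeR). The fold change was similar but the call was lost without Control 3 (-0.43, adjusted p = 0.0622 by edgeR), Control 5 (-0.46, 0.0594), 1C-MIM 3 (-0.44, 0.0701) or 1C-MIM 4 (-0.51, 0.0584), and without Control 1 and Control 5 together (-0.45, 0.0996).

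Thbs4, the most abundant thrombospondin here per kilobase, is made by tendon cells and in muscle stabilises the attachment of fibres to the matrix. Control libraries had 89.8, 85.6, 113, 104 and 120 CPM, and 1C-MIM libraries had 61.5, 127, 41.5, 72.5 and 105 CPM. The Controls sat within a 1.4-fold range, whereas the supplemented libraries ran over a 3.07-fold range, with 1C-MIM 3 the lowest and 1C-MIM 2 the highest of all 10 libraries. The means, 102 ± 14.7 and 81.5 ± 34.3 CPM, did not differ beyond that spread (log2 fold change -0.33, SE 0.26, adjusted p = 0.383 by edgeR). Without 1C-MIM 2 the log2 fold change was -0.55, with an edgeR adjusted p of 0.136, and without 1C-MIM 3 it was -0.16.

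Thbs1, an activator of latent TGF-β and a ligand of CD36 and CD47, had 26.6, 11.4, 13.2, 13.2 and 13.0 CPM in Control and 5.98, 19.2, 8.54, 13.7 and 13.7 CPM in 1C-MIM. Control 1 was far above the other Controls, which lay close together, and 1C-MIM covered both sides of them. The means were 15.5 ± 6.25 and 12.2 ± 5.15 CPM (log2 fold change -0.34, SE 0.32, adjusted p = 0.477 by edgeR). The log2 fold change was -0.06 (SE 0.27) without Control 1, -0.16 without 1C-MIM 1 and -0.56 without 1C-MIM 2. Thbs2, which regulates collagen fibril assembly and the clearance of matrix proteases, had 23.3, 25.8, 30.2, 24.1 and 22.9 CPM in Control and 20.5, 46.1, 24.5, 27.6 and 33.8 CPM in 1C-MIM. Here 1C-MIM 2 and 1C-MIM 5 were the highest of all libraries and 1C-MIM 1 the lowest. The mean of Thbs2 was 25.2 ± 2.98 CPM in Control and 30.5 ± 9.98 CPM in 1C-MIM (log2 fold change 0.27, SE 0.18, adjusted p = 0.307 by edgeR), and without 1C-MIM 2 the log2 fold change was 0.07 (SE 0.13).

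The tenascins differ in where they act: tenascin-C is scarce in adult tissue, appears at the myotendinous junction and is induced by injury and mechanical load, while tenascin-X is a constant part of adult connective tissue that spaces collagen fibrils. Tnc had 8.25, 5.32, 7.75, 7.02 and 7.94 CPM in Control and 3.70, 12.8, 3.75, 5.57 and 9.69 CPM in 1C-MIM. The supplemented libraries fell on both sides of the Controls, over a 3.46-fold range against 1.55-fold in Control. The group means were close, at 7.26 ± 1.18 and 7.1 ± 4.0 CPM (log2 fold change -0.03, SE 0.32, adjusted p = 0.955 by edgeR), and the sign turned when single libraries were left out. Tnxb had 71.8, 69.2, 102, 71.4 and 80.3 CPM in Control and 54.5, 123, 73.1, 79.4 and 82.6 CPM in 1C-MIM. Most libraries of both groups lay between 69.2 and 82.6 CPM, with Control 3 and 1C-MIM 2 above and 1C-MIM 1 below. Its means of 78.9 ± 13.5 and 82.5 ± 25 CPM did not differ beyond the spread (log2 fold change 0.06, SE 0.19, adjusted p = 0.826 by edgeR).

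Fn1 had 94.5, 80.7, 114, 85.4 and 79.6 CPM in Control and 47.7, 119, 71.1, 76.6 and 69.9 CPM in 1C-MIM. Apart from 1C-MIM 2, which was the highest of all libraries, every supplemented library lay below every Control. The means were 90.8 ± 14.2 and 76.9 ± 26.1 CPM, and the gene was not past the test (log2 fold change -0.24, SE 0.20, adjusted p = 0.405 by edgeR). Without 1C-MIM 2 the log2 fold change was -0.45 (SE 0.14), just short of the threshold (adjusted p = 0.051 by edgeR), without 1C-MIM 1 it was -0.11 and without Control 3 it was -0.15.

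Fibronectin made by tissue cells can carry the alternatively spliced EDA and EDB exons, which plasma fibronectin from liver lacks, and a variable V region that holds integrin binding sites. The tables list Fn1 transcripts that differ by each of these segments. The counts look as if a read fitting several isoforms was counted for each, which the sources do not state. Under that reading, the excess of counts for the longer transcript of a pair gives reads that fell wholly within the segment. For the V region of 360 bases this excess was 78, 79, 131, 74 and 74 reads in Control 1 to 5 and 43, 104, 70, 54 and 73 reads in 1C-MIM 1 to 5. That was 31.2 reads per 1000 Fn1 reads in Control and 30.2 in 1C-MIM, nearly the same share of the reads in both groups. For the EDA exon of 270 bases the excess was 8, 6, 5, 5 and 3 reads in Control and 3, 2, 3, 6 and 3 reads in 1C-MIM. The EDB exon of 273 bases had 0, 0, 1, 1 and 0 reads in Control and 0, 3, 3, 3 and 1 in 1C-MIM, where a count of 0 allows up to 3. Over all libraries the excess was 217 reads per 100 bases for the V region, 16.3 for EDA and 4.4 for EDB. Under the same reading, reads that also touch a shared exon are counted for both transcripts of a pair, so these figures understate inclusion. They understate it more for a shorter segment, so the figures per 100 bases do not rank the segments by inclusion. At 44 reads for EDA and 12 for EDB over 10 libraries the groups were not compared for either exon.

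**Figure D2:**
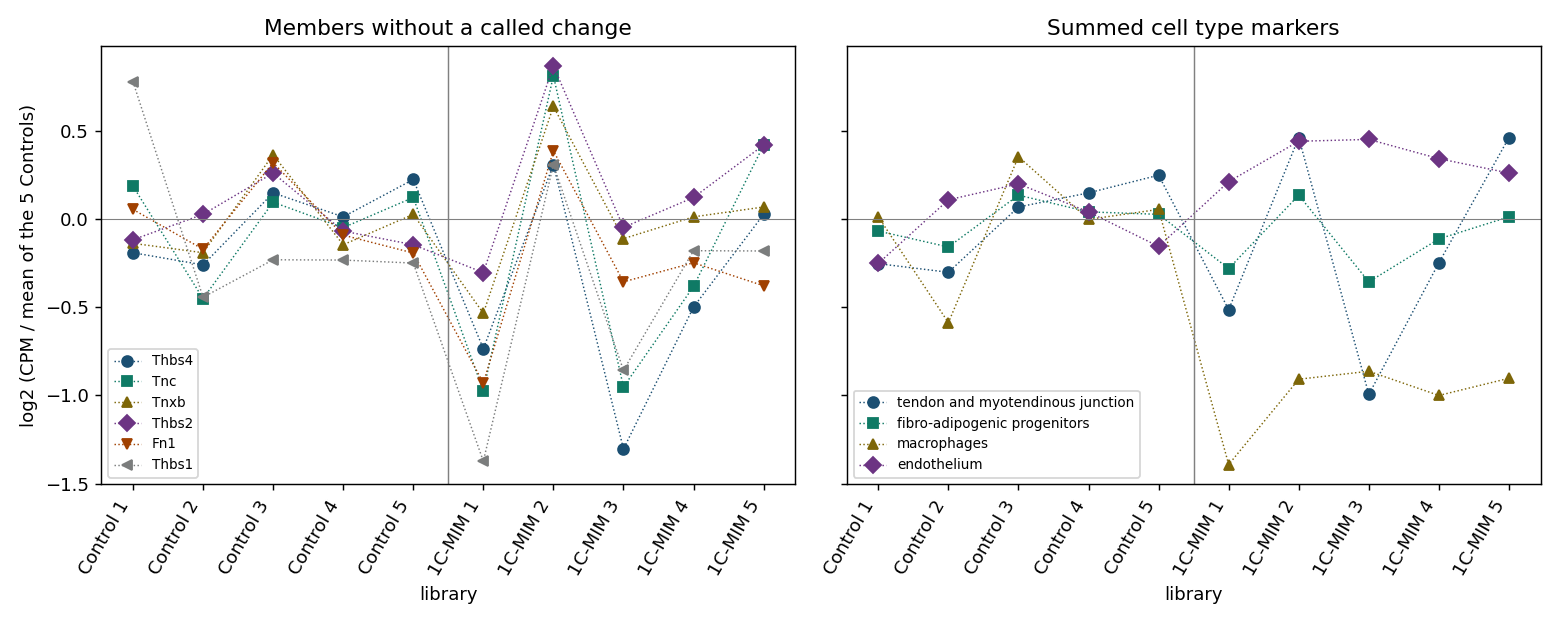
Left, the 6 members that were not past the test, and right, summed CPM of 4 cell type marker lists, by library; the vertical axis is log2 of CPM over the mean of the 5 Controls, and dotted lines only join the points of a gene or list. Within 1C-MIM, all 6 members and the tendon markers are higher in 1C-MIM 2 than in 1C-MIM 1 and 1C-MIM 3, whereas macrophage markers are below every Control in all 5 supplemented libraries.

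Several members, called or not, were ordered alike among the supplemented libraries. Of all 10 libraries, 1C-MIM 2 was the highest for 6 members (Sparcl1, Tnc, Tnxb, Thbs2, Thbs4 and Fn1), and 1C-MIM 1 was the lowest for 6 (Tnc, Tnxb, Thbs1, Thbs2, Thbs3 and Fn1). Of these, Sparcl1 and Thbs3 were called. How often these libraries were the extremes over all genes was not counted. 1C-MIM 2 was also the highest for some listed genes outside the members, such as Lrp1, Tead1 and Cdh5. For others, such as Cd36 and Flt1, it was not. The order is therefore not shown to be particular to the members. Control 1 was the highest for 3, Postn, Sparc and Thbs1. Within 1C-MIM, Postn was also highest in 1C-MIM 2 and near its lowest in 1C-MIM 1, but over a narrow range of 1.25-fold, and Sparc ranged over 1.19-fold with 1C-MIM 5 at the top.

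Markers of tendon and the myotendinous junction varied across the same libraries. Their summed level (Scx, Tnmd, Mkx, Fmod, Chad, Kera, Comp and Col22a1) was 140, 136, 175, 186 and 198 CPM in Control 1 to 5 and 117, 231, 83.8, 141 and 230 CPM in 1C-MIM 1 to 5. It was highest in 1C-MIM 2 and 1C-MIM 5 and lowest in 1C-MIM 3 and 1C-MIM 1, which is also how Tnc was ordered at its extremes and, except for 1C-MIM 5, Thbs4. None of the 8 tendon genes was called in either direction (0 higher, 0 lower), and none was at 0. Tnmd, a marker of mature tendon cells, had 5.48 CPM in Control and 3.89 in 1C-MIM (log2 fold change -0.49, SE 0.33, adjusted p = 0.295 by edgeR), and Col22a1, a collagen of the junction, had 25.1 and 27.9 (0.16, SE 0.07, adjusted p = 0.114 by edgeR). The sources used here do not say how much tendon each quadriceps sample held, and its part in the values of Thbs4 and Tnc was not tested.

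Control 1 was also the library with neuronal transcripts. The summed neuronal markers were 31.3 CPM there, 5.12 to 6.42 in the other Controls and 4.3 to 4.99 in 1C-MIM. Only Tubb2b and Stmn2 of these 7 genes had enough reads to be tested. Tubb2b, a tubulin of immature neurons, was called lower (log2 fold change -2.20, SE 0.70, adjusted p = 0.0499 by edgeR), with 15.9 CPM in Control 1, and its call was lost in 12 of the alternatives (adjusted p 0.0527 to 0.104), among them the omission of Control 4, Control 5 or any of the 1C-MIM libraries; without Control 1 it was still called, at -1.02. Stmn2 stood at -0.45 without a call. Without Control 1, Postn and Sparc were still called (log2 fold changes -1.17 and -0.37), and Thbs1 was at -0.06.

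Part of the markers of connective tissue cells moved with Postn and Sparc. The counts in this paragraph stand against 11.8% called lower and 9.78% called higher over all tested genes. Of 10 markers of fibro-adipogenic progenitors, the resident fibroblast-like cells of muscle, 6 were lower, 0 higher and 4 uncalled (median log2 fold change -0.32). Thy1, a surface glycoprotein of fibroblasts, fell by 0.69 on the log2 scale (SE 0.11) and Lum, the collagen-binding proteoglycan lumican, by 0.46 (SE 0.09), both without overlap. The summed level of this list, most of which is Dcn, overlapped between the groups, at 714 to 872 CPM in Control and 623 to 873 CPM in 1C-MIM. Its defining receptor gene Pdgfra, chosen after its value was seen, had 31.3 CPM in Control and 31.9 in 1C-MIM (log2 fold change 0.03, SE 0.13). Of 11 macrophage markers 9 were lower and 0 higher, with summed levels of 284.6 to 545.4 CPM in Control and 163 to 235 CPM in 1C-MIM. Among them the lysosomal protease gene Ctss fell by 1.73 (SE 0.13) and Cd68 by 1.32 (SE 0.14). The uncalled macrophage markers, named after their values were seen, were Mrc1 (log2 fold change -0.22, SE 0.17) and Cd163 (0.19, SE 0.17). None of the progenitor or macrophage markers was at 0 in all libraries, and the part of both cell types in the lower values of Postn, Sparc and Thbs3 was not tested.

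Sparcl1 rose together with part of the markers of vessels. Of 9 endothelial markers 6 were higher and 0 lower (median log2 fold change 0.37), and their summed level was 230 to 314 CPM in Control and 317 to 376 CPM in 1C-MIM, without overlap. Flt1, a receptor for vascular endothelial growth factor, rose from 33.7 to 47.6 CPM (log2 fold change 0.50, SE 0.11, adjusted p = 0.00859 by edgeR), and was at 0.33, still called, with the length trend removed. Vwf, the von Willebrand factor gene, rose by 0.53 (SE 0.13), a call lost with the length trend removed (0.27, adjusted p = 0.0936 by edgeR) and without Control 1 and Control 5 together (0.44, 0.0797). Without those Controls 2 endothelial markers were higher, and 3 were with the length trend removed, without 1C-MIM 2 or with library totals. Of 10 smooth muscle and pericyte markers 2 were higher, Rgs5 (0.74, SE 0.20) and Cspg4 (0.39, SE 0.13), and both calls were lost with the length trend removed and without 1C-MIM 2, 1C-MIM 3 or 1C-MIM 4 (edgeR adjusted p 0.0516 to 0.28). In these alternatives Rgs5 stayed at 0.65 to 0.84, while Cspg4 was at 0.16 with the length trend removed and 0.30 to 0.40 in the others. The call of Cspg4 was also lost without Control 1, Control 4 or Control 5 (0.34 to 0.36, adjusted p 0.0759 to 0.0887), without Control 1 and Control 5 together (0.28, 0.186) and with library totals (0.32, 0.111). With library totals 1 gene of this list was higher and 1 lower. Over all tested genes 9.78% were called higher and 11.8% lower. Among the uncalled genes, the endothelial Cldn5 (-0.12) and the smooth muscle genes Acta2 (-0.25), Tagln (-0.24) and Cnn1 (-0.39) had negative fold changes. The other uncalled genes of both lists had positive ones. The part of vessel cells in the value of Sparcl1 was not tested.

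**Figure D3:**
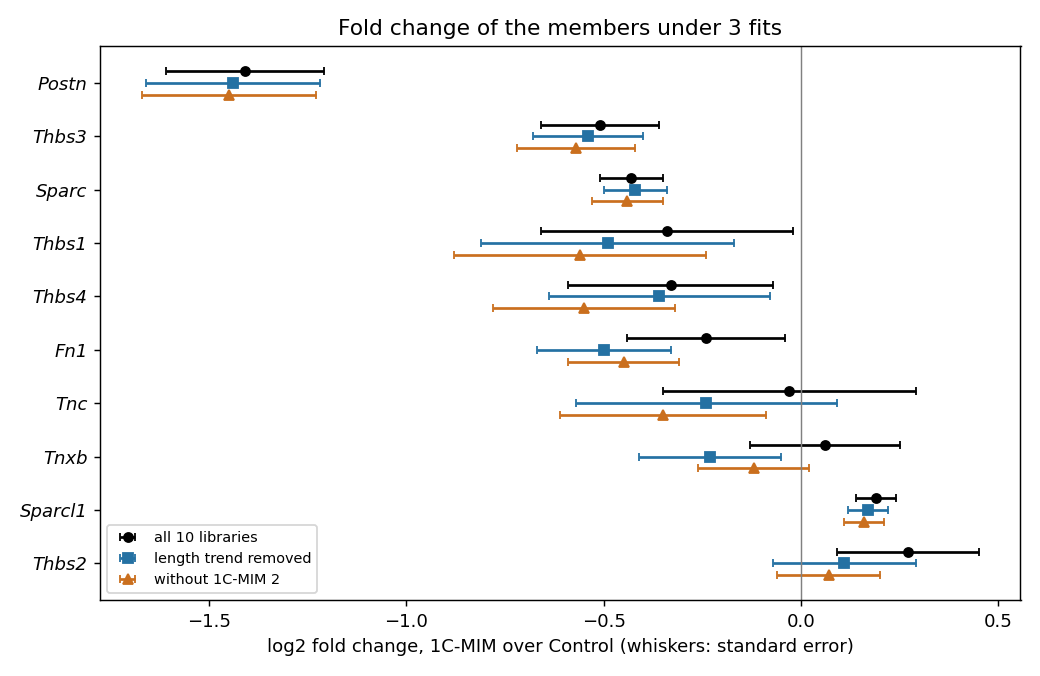
Log2 fold change of each member, 1C-MIM over Control, with its standard error as whiskers, for all 10 libraries (circles), with the length trend removed (squares) and without 1C-MIM 2 (triangles). Postn, Sparc, Thbs3 and Sparcl1 move little between the fits, whereas Fn1 moves from -0.24 to -0.50 and -0.45 and Tnxb changes sign.

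Several members have long transcripts, so their values were also computed with each library's trend with transcript length removed. Tnxb with 9569 bases, Fn1 with 8425 and Tnc with 7100 lie at the 97.9, 96.7 and 93.7 percentiles of length among tested genes, and Thbs2 (5922 bases) and Thbs1 (5802) at 89.0 and 88.4. The other members, from Sparc with 2638 bases to Postn with 3211, lie between percentiles 45.9 and 58.1. After this adjustment the log2 fold changes of the long members were all lower: -0.50 for Fn1 (SE 0.17, adjusted p = 0.0728 by edgeR), -0.49 for Thbs1, -0.24 for Tnc, -0.23 for Tnxb and 0.11 for Thbs2. The shorter members kept their values, with Postn at -1.44, Sparc at -0.42, Thbs3 at -0.54, Sparcl1 at 0.17 and Thbs4 at -0.36. No member's call changed with this adjustment.

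The animal numbers in the deposited names begin with 2 (3 mice in each group) or with 3 (2 in each), and the sources used here do not say what this numbering stands for. The called members differed in the same direction within both series. For Postn, Sparc and Sparcl1 any split of the libraries gives this, because their groups did not overlap. Log2 differences of the means were -1.39 and -1.29 for Postn, -0.43 and -0.41 for Sparc, -0.64 and -0.33 for Thbs3 and 0.18 and 0.22 for Sparcl1. The uncalled Thbs1 stood at -0.67 and 0.06, and Fn1 at -0.37 and -0.17. Neither series was tested on its own, and over both series Thbs1 was at -0.06 without Control 1.

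**Figure D4:**
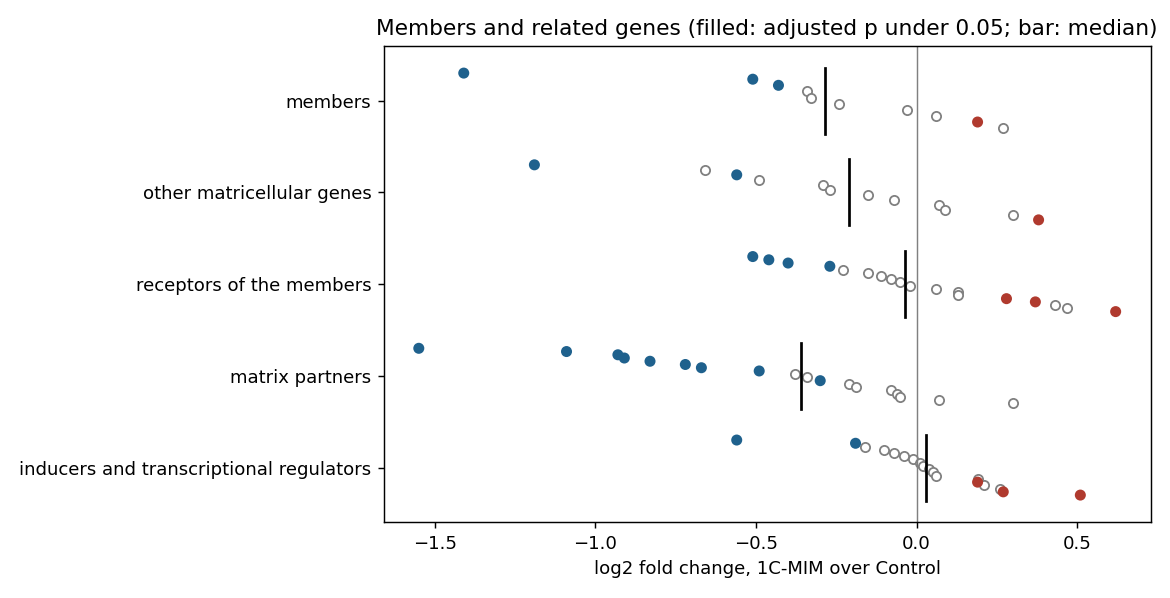
Log2 fold change, 1C-MIM over Control, of the members and of the tested genes of 4 related lists; each point is a gene, filled where it was called (blue lower, red higher), the vertical bars are medians, and the height of points within a row has no meaning. Matrix partners have 9 filled points on the left and 0 on the right, while receptors and inducers have filled points on both sides.

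The matrix proteins that bind or are processed together with the members were lower as far as they were called. Of 18 matrix partners 9 were lower, 0 higher and 9 uncalled, with a median log2 fold change of -0.36, and without Control 1 and Control 5 together 4 were lower. Over all tested genes 11.8% were called lower and 9.78% higher. Col3a1, which codes for the fibrillar collagen III, dropped from 316 ± 78.8 to 108 ± 17.6 CPM (log2 fold change -1.55, SE 0.17, adjusted p = 0.000272 by edgeR). Col5a2, a chain of the collagen V that starts fibrils, dropped from 42.5 ± 9.57 to 22.2 ± 3.68 CPM (-0.93, SE 0.15, adjusted p = 0.00257 by edgeR), and the microfibril gene Mfap2 from 3.27 ± 0.747 to 1.71 ± 0.139 CPM (-0.91, SE 0.16, adjusted p = 0.00245 by edgeR). These 3 genes were called in all alternatives and their groups did not overlap. Dcn, the small proteoglycan decorin, was among the uncalled partners at 418 ± 42.8 and 440 ± 84.7 CPM, and it also stands in the list of fibro-adipogenic progenitors. Hspg2, named after its value was seen, was uncalled at 165 ± 21.9 and 203 ± 44.7 CPM (log2 fold change 0.30, SE 0.14). The remaining uncalled partners had negative fold changes. With the length trend removed 12 matrix partners were lower.

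Other matricellular genes were mixed. Of 16 genes 12 could be tested, Spock1, Spock3, Tnn and Tnr having too few reads. Among those tested 2 were lower, 1 higher and 9 uncalled (median log2 fold change -0.21). The shares over all tested genes were 11.8% lower and 9.78% higher. Spp1, the osteopontin gene, dropped from 4.81 ± 0.777 to 2.07 ± 0.369 CPM (log2 fold change -1.19, SE 0.15, adjusted p = 0.000272 by edgeR). In the Controls it ranged from 4.08 to 6.03 CPM and in 1C-MIM from 1.66 to 2.47 CPM. Fstl1, a secreted follistatin-like protein with a SPARC-type domain, dropped from 68.8 ± 12.4 to 46.6 ± 6.2 CPM (-0.56, SE 0.12, adjusted p = 0.00882 by edgeR), with groups that overlapped. Smoc1, a basement membrane member of the SPARC family, rose from 7.53 ± 0.386 to 9.8 ± 1.72 CPM (0.38, SE 0.11, adjusted p = 0.0241 by edgeR), and its call was lost without Control 4 (adjusted p = 0.0603 by edgeR), without Control 1 and Control 5 together (0.067) and with the length trend removed (0.05). Within the SPARC family, then, Sparc and Fstl1 were lower and Sparcl1 and Smoc1 higher, while Smoc2 (156 ± 11.1 and 167 ± 9.97 CPM) and Spock2 (14.1 ± 0.959 and 12.7 ± 1.56 CPM) were not called; both were named after their values were seen.

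Receptors through which cells bind the members changed in both directions. Of 18 tested receptor genes 3 were higher, 4 lower and 11 uncalled (median log2 fold change -0.03), against 9.78% higher and 11.8% lower over all tested genes. Itga4, the α4 integrin chain that binds the V region of fibronectin, rose from 14.5 ± 1.98 to 22.3 ± 4.16 CPM (0.62, SE 0.13, adjusted p = 0.00661 by edgeR), and was at 0.34, still called, with the length trend removed. Cd36, a thrombospondin receptor and fatty acid transporter, rose from 175 ± 29.3 to 227 ± 13.3 CPM (0.37, SE 0.10, adjusted p = 0.0184 by edgeR), a call lost without 1C-MIM 4 (0.34, adjusted p = 0.0514 by edgeR), without Control 1 and Control 5 together (0.22, 0.0553) and with library totals (0.30, 0.0552). Sdc4, the syndecan that binds fibronectin at focal adhesions, dropped from 26.5 ± 5.43 to 18.6 ± 1.12 CPM (-0.51, SE 0.12, adjusted p = 0.0102 by edgeR), and stood at -0.29, still called, without Control 1 and Control 5 together. The integrin β1 chain gene Itgb1, named after its value was seen, had 192 CPM in Control and 186 in 1C-MIM and was not called. Without Control 1 and Control 5 together, 3 receptor genes were higher and 1 lower, and with library totals 1 was higher and 4 lower.

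Among 18 inducers and transcriptional regulators of the members, 3 were higher, 2 lower and 13 uncalled (median log2 fold change 0.03). The shares over all tested genes were 9.78% higher and 11.8% lower, so the counts of this list were near them. Tgfb1, which codes for the cytokine that induces Postn, Fn1 and Tnc in fibroblasts, dropped from 8.41 ± 1.08 to 5.7 ± 0.352 CPM (log2 fold change -0.56, SE 0.10, adjusted p = 0.00271 by edgeR). The groups did not overlap for Tgfb1 (7.04 to 9.73 CPM in Control, 5.38 to 6.25 in 1C-MIM), and it was called in every alternative. Tgfb2 went the other way, from 22.5 ± 1.57 to 27.2 ± 1.38 CPM (0.27, SE 0.06, adjusted p = 0.0113 by edgeR), a call lost with library totals (0.20, adjusted p = 0.0704 by edgeR). Tead1, a partner of the mechanosensitive coactivator YAP, rose from 128 ± 21.7 to 183 ± 34.9 CPM (0.51, SE 0.14, adjusted p = 0.0234 by edgeR), with overlapping groups. The call of Tead1 was lost when Control 3, Control 4, 1C-MIM 2 or 1C-MIM 4 was left out, and without Control 1 and Control 5 together (edgeR adjusted p 0.0504 to 0.059, log2 fold change 0.42 to 0.50). The YAP gene Yap1 was itself called lower, from 67.1 ± 5.14 to 58.8 ± 2.88 CPM (-0.19, SE 0.06, adjusted p = 0.042 by edgeR). Tgfb3 was called higher (0.19, SE 0.06). Both were named after their values were seen, and the calls of Yap1 and Tgfb3 were lost in 12 and 14 of the alternatives. Wwtr1 was uncalled at -0.07. With the length trend removed, 2 genes of this list were higher and 4 lower; without Control 1 and Control 5 together 2 were higher and 1 lower, without 1C-MIM 2 it was 1 and 1, and with library totals 1 and 3. The fold changes of Tgfb2 and Tead1 were 0.17 and 0.23, both still called, with the length trend removed.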

How the data were processed

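Per the file headers, the deposited tables give a whole-number count for each of 33984 RefSeq transcripts in each animal's library, not normalized by the authors. The treatment of reads that fit several isoforms is not stated; in the values, isoforms of a gene often hold nearly the same count, as if such reads were counted for each. The deposited FPKM values, which the authors scaled per kilobase and library total, served only to recover transcript lengths, and the deposited TPM values, which the authors scaled to a common total, were not used. The submitters' processing notes name, without role or order, STAR, Salmon 1.5.2, StringTie 2.2.1, featureCounts, Subread 2.0.1, Trim Galore 0.6.7, Picard 2.27.4, SAMtools 1.15.1, bedtools 2.30.0, DESeq2 1.28.0 and build GRCm39. The sources used here do not state filters or strand setting for the counts.

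From the counts, 1 transcript was kept per symbol, which left out 45.3 to 47.4% of transcript counts, which under that reading are mostly the same reads. Genes were filtered with filterByExpr, scaled by TMM and tested with the quasi-likelihood F test (robust, prior count 2) of edgeR 4.0.16 in R 4.3.3, with the group as the only term and Benjamini-Hochberg adjustment over 13880 genes. The procedure was tested on simulated data. Alternatives were other scalings, no filter, DESeq2 1.42.0, limma-voom (limma 3.58.1), blocks for replicate number or animal number series, summed transcripts, removal of each library's length trend (natural spline, 3 inner knots), and leaving out libraries. Genes named are all 10 members, the 3 with the smallest p of each related list and the 2 with the smallest p of each marker list; others were named after their values were seen. The members and lists were chosen with earlier results of these data known.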

Additional observations from a re-analysis of the deposited data

Results flagged for a closer look

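Thbs1 in Control 1, at 26.6 CPM, lay far from the other Controls, with a gap to the nearest of them of 0.88 of the group's range, above Dixon's critical value of 0.71 for 5 samples. Of 20 groups examined (10 members in each of both groups) this was the only such value, and chance gives about 1 in 20.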

How the results depend on the processing

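Calls of the members mostly held: over the alternatives, 182 of the members' values kept their direction and side of the threshold, 9 lost the call and 9 changed sign, all of the last in Tnc and Tnxb, which were never called. Tnc (-0.03 with all libraries) was 0.08 without Control 1 and Control 5 together and -0.35 to 0.13 when single libraries were left out. Tnxb (0.06) was -0.01 with library totals, -0.23 with the length trend removed and -0.12 to 0.19 with single libraries left out. The junction marker Col22a1 was 0.0 with the length trend removed. Genes called higher and lower (1357 and 1642) numbered 606 and 2896 with library totals and 832 and 976 without Control 1 and Control 5 together; with single libraries left out they ranged from 739 to 1558 and from 941 to 1885. The counts moved most without Control 4 (902 higher), 1C-MIM 3 (843 and 1057) and 1C-MIM 4 (739 and 941). Members called higher were 0 with library totals and 0 without those Controls, and 0 to 1 with single libraries left out; the cause was not tested. With the replicate number as a block, 1932 genes were higher and 1965 lower, Postn was at -1.35, and no member's call changed. The numbers share no known source, and same-numbered libraries deviated with correlations of -0.075 to 0.387, so the block is no pairing. Of the listed genes, Fstl1 (-0.55, edgeR adjusted p = 0.0516), Col1a1 (-1.12, 0.0502), Bgn (-0.69, 0.0513), Col1a2 (-0.87, 0.0818), Stab1, Yap1, Lep and Tubb2b lost their calls under the block, the first 4 with fold changes about as large as without it. Depth limits chiefly Tnc, Thbs3 and Postn, whose libraries held from 107, 130 and 194 reads.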

Other observations

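Other cell types of the samples were followed through their markers. The counts below stand against 9.78% called higher and 11.8% called lower over all tested genes. Of 9 muscle fibre genes 3 were higher and 0 lower (3 and 2 with library totals as the scaling), among them the fast sarcoplasmic calcium pump gene Atp2a1 (log2 fold change 0.27, SE 0.06) and the fast myosin gene Myh1 (0.42, SE 0.09, and 0.27 with the length trend removed), with the list's summed level at 205000 to 230000 CPM in Control and 220000 to 249000 in 1C-MIM. Of 6 adipocyte genes 2 were higher and 0 lower: Car3, a carbonic anhydrase abundant in fat and slow fibres, rose by 0.64 (SE 0.10) without overlap, and the hormone gene Lep rose by 1.42 (SE 0.32) with overlap. The call of Lep was lost without Control 1 and Control 5 together (1.30, edgeR adjusted p = 0.0964) and under the replicate block (0.0512). Summed adipocyte markers were 683 to 743 CPM in Control and 823 to 1220 CPM in 1C-MIM, most of it Car3 (563 and 877 CPM on average). The other adipocyte genes, named after their values were seen, were not called: Adipoq was at 0.08, Plin1 at 0.11, Cidec at 0.10 and Retn at -0.43 (edgeR adjusted p = 0.052). Of 3 tested platelet genes 2 were lower, the platelet chemokine Pf4 by 0.72 (SE 0.13) and Gp1bb, a chain of the von Willebrand factor receptor, by 0.58 (SE 0.19), the latter with its call lost without any of Control 1, Control 3, Control 4, Control 5, 1C-MIM 2, 1C-MIM 3, 1C-MIM 4 or 1C-MIM 5 (edgeR adjusted p 0.0564 to 0.114). The call of Gp1bb was also lost with the length trend removed (-0.51, edgeR adjusted p = 0.0702) and without Control 1 and Control 5 together (-0.38, 0.222). Platelets store thrombospondin 1, and their summed markers were 11.4 to 18.6 CPM in Control and 8.87 to 10.8 CPM in 1C-MIM; their part in the Thbs1 values was not tested. Of 8 Schwann cell genes 1 was higher, the myelin gene Mbp (0.35, SE 0.10), and its call was lost without Control 4, 1C-MIM 4 or 1C-MIM 5 (edgeR adjusted p 0.0535 to 0.0556). The call of Mbp was also lost with library totals (0.27, edgeR adjusted p = 0.0708) and without Control 1 and Control 5 together (0.25, 0.0756). The myelin gene Prx was at 0.28 without a call. Of 4 tested satellite cell genes 0 were called, with Myf5 at -0.27 and Cdh15 at 0.10.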
